A study of Mus musculus with 10 samples.

Results

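Oct4+ nEnd and DP nEnd were compared by the histone mark H3K4me3 at gene promoters, with 4 libraries of Oct4+ nEnd and 3 of DP nEnd out of the 10 H3K4me3 libraries of the series. nEnd is naive extra-embryonic endoderm, a mouse stem cell culture in which cells that resemble early primitive endoderm (PrE) are kept beside cells that have returned to an epiblast-like (Epi-like) state. Both populations came from 1 untreated reporter line, in which OCT4 carries the fluorescent protein mCherry, and were separated by FACS on OCT4-mCherry and on surface PDGFRA stained with APC. Oct4+ nEnd carries OCT4-mCherry alone, and DP (double positive) nEnd carries OCT4-mCherry and PDGFRA. OCT4 expression is therefore shared by both groups, PDGFRA separates them, and a single cell line stands behind all 7 libraries. The mark was mapped by CUT&Tag, in which an antibody tethers the Tn5 transposase to modified nucleosomes so that the DNA around them is cut and tagged. The labels call the libraries replicates and do not tie them to separate sorts, so p-values measure the spread between these libraries.

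Peaks were ranked within each library by total signal (coverage added up along the peak). The rank was written as a percentile, so that a peak at the 99 percentile exceeded nearly every other peak of its library. Promoters reached from 1000 bp before to 100 bp after any TSS of a protein-coding transcript (GENCODE M21, build GRCm38). A gene counted as marked once a peak touched its promoter by 1 bp, and its best peak gave the percentile. An absent peak counted as percentile 0, also where it was missing from 1 library only, except where absent peaks are said to be left missing. Of 21670 protein-coding genes with 54081 TSS, 10478 were marked in any of the 7 libraries and 3821 in all 7.

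H3K4me3 lies over the start sites of active and poised genes, most of them rich in CpG, and broad domains of the mark are known over genes that define a cell's identity. In the early embryo the inner cell mass divides into Epi, held by OCT4, SOX2 and NANOG, and PrE, set up by GATA6, GATA4, SOX17 and FGF signaling. PrE then lays down a basement membrane of laminin and type IV collagen. OCT4 binds an octamer, searched for below in the shortened form ATGCAAA, together with SOX2 at many Epi genes. OCT4 is also present in PrE before its commitment.

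The 250 bases upstream of the RefSeq start site are shown for 4 genes with the higher percentile in Oct4+ nEnd and 2 found in DP nEnd alone (GRCm38.p6), since these stretches were covered in full by the peaks counted next and hold no annotated exon. Every base of the *Fgf4* stretch, chr7:144861136-144861385 (plus strand), was under the peak in 4 of 4 Oct4+ nEnd libraries and 0 of 3 DP nEnd libraries. The *Nanog* stretch, chr6:122707239-122707488 (plus strand), and the *Nodal* stretch, chr10:61417722-61417971 (plus strand), were covered in 4 of 4 and 3 of 3 libraries. The *Tdgf1* stretch, chr9:110946159-110946408 (minus strand), was covered in 4 of 4 and 1 of 3. The *Foxa2* stretch, chr2:148046970-148047219 (minus strand), and the *Flt1* stretch, chr5:147726012-147726261 (minus strand), were covered in 0 of 4 Oct4+ nEnd and 3 of 3 DP nEnd libraries. Capitals mark a match to ATGCAAA, the shortened form of the octamer, or to the GATA motif AGATAA on either strand. Sequences are written 5′ to 3′ on the strand of the gene.
Fgf4: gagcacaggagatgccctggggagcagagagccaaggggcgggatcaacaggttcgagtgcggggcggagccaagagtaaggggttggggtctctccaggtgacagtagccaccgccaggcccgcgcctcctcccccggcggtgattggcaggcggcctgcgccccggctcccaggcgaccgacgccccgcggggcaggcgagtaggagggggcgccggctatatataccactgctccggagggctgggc
Nanog: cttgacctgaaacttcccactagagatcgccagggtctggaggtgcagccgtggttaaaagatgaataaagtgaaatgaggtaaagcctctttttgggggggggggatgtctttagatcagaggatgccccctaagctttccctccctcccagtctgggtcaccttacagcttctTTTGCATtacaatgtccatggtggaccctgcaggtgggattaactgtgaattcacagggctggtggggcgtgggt
Tdgf1: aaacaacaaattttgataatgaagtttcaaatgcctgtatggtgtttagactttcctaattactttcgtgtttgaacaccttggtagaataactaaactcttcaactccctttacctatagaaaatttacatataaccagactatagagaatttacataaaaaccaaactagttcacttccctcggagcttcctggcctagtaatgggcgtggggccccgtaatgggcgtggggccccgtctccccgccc
Nodal: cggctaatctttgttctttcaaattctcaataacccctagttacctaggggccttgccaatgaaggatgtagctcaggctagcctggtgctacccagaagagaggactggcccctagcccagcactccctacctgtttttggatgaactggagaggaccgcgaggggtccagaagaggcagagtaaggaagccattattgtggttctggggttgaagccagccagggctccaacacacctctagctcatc
Foxa2: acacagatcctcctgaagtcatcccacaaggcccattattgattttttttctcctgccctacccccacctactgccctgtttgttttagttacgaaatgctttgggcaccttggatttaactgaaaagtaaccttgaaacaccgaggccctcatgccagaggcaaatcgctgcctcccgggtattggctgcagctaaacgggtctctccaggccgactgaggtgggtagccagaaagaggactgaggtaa
Flt1: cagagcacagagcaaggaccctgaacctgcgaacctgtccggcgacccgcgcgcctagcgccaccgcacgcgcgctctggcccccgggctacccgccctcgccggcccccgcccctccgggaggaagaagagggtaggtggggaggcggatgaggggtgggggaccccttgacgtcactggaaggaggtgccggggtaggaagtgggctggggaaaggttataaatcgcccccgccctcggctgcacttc
The 1 match, in *Nanog*, begins 75 bases upstream of the start site and reads as ATGCAAA on the opposite strand. The full octamer was not searched for. Among 32817 RefSeq windows of the same length, 4.13% hold ATGCAAA and 9.99% the GATA motif. The stretches differ in CpG content, with 21 CpG in *Fgf4* and 23 in *Flt1* but 3 in *Nanog*, 3 in *Nodal*, 6 in *Foxa2* and 7 in *Tdgf1*, beside a median of 6 over all windows.

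The libraries differed in coverage in the same direction as the populations. Taking the highest coverage of every peak, the median peak reached 59, 52, 22 and 38 in Oct4+ nEnd replicates 1 to 4 and 107, 144 and 123 in DP nEnd replicates 1 to 3 (two-sided exact permutation, p = 0.0286, below which 4 libraries against 3 cannot go). Every Oct4+ nEnd library lay below every DP nEnd library, so that coverage and population cannot be told apart. In sorted pools, fewer marked cells and a weaker mark per cell cannot be told apart either. The sequencing depth is unknown, as the peak lists carry no read totals. Oct4+ nEnd replicates 3 and 4 held 3477 and 4887 peaks, and the other 5 libraries between 7575 and 9144. Results are therefore also given with equal numbers of peaks, which keeps the 3477 peaks of highest total signal in each library, and without Oct4+ nEnd replicates 3 and 4.

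Promoter peaks marked 9406, 8545, 3959 and 5424 genes in Oct4+ nEnd replicates 1 to 4 and 8996, 9725 and 8463 in DP nEnd replicates 1 to 3. The populations overlapped, and the means of 6834 ± 2569 (SD, n = 4) and 9061 ± 634 (SD, n = 3) did not differ beyond the spread between libraries (exact permutation over libraries, p = 0.286). Equal numbers of peaks brought the counts closer, to 4076 ± 103 (SD, n = 4) and 4306 ± 57.2 (SD, n = 3), with every DP nEnd library above every Oct4+ nEnd library (4255 to 4368 against 3959 to 4198). The exact permutation p of this difference was 0.0571. Promoter peaks overlapped in width between the populations. Their median was 4095, 3465, 3506 and 4113 bp in Oct4+ nEnd replicates 1 to 4 and 4115, 4330 and 3645 bp in DP nEnd replicates 1 to 3 (exact permutation test, p = 0.429). The share of marked genes with a peak of 5000 bp or more was 23.7% ± 8.08 (SD, n = 4) in Oct4+ nEnd and 27.5% ± 7.79 (SD, n = 3) in DP nEnd (exact permutation test, p = 0.543).

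**Figure D1:**
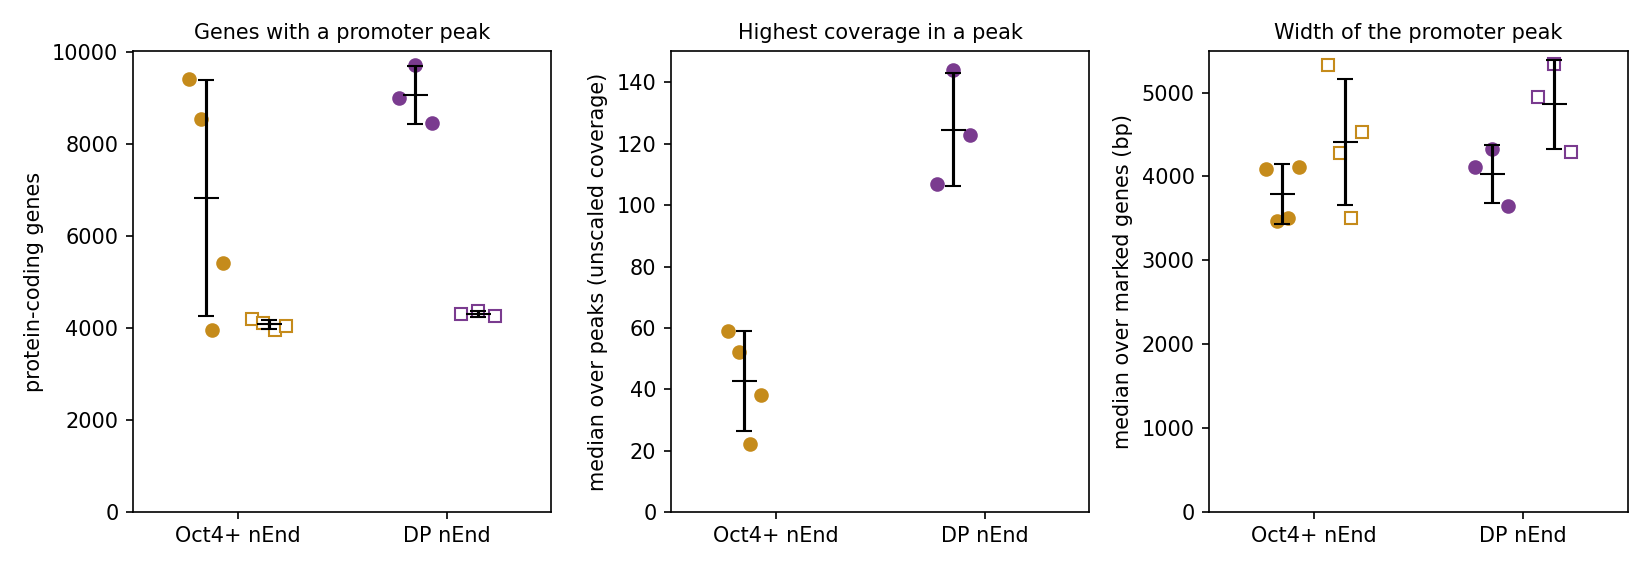
Genes with a promoter peak, highest coverage of the median peak, and median width of promoter peaks in bp, by library, with the mean and SD of each population in black. Filled circles are all peaks and open squares equal numbers of peaks; the 4 Oct4+ nEnd libraries lie between 22 and 59 in coverage and the 3 DP nEnd libraries between 107 and 144, while the widths overlap.

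The genes of the 2 proteins used for sorting followed the sort and are given as a check of the labels. The peak at *Pou5f1*, which encodes OCT4, lay at the percentiles 99.9, 99.9, 99.3 and 99.5 in Oct4+ nEnd replicates 1 to 4 and 70.2, 62.2 and 72.4 in DP nEnd replicates 1 to 3, so both populations carried it and its rank was higher in each Oct4+ nEnd library. Peaks there can also cover the promoters of *Cchcr1* and *Tcf19*. The peak at *Pdgfra* lay at 99.8, 99.9 and 99.9 in DP nEnd replicates 1 to 3 and was found in 1 of 4 Oct4+ nEnd libraries, at the 15.7 percentile of replicate 1.

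Promoter peaks present in all 4 Oct4+ nEnd libraries and in none of DP nEnd were found at 42 genes in 40 regions, 0.194% of all protein-coding genes. *Fgf4*, the fibroblast growth factor that Epi cells signal with, led them when ranked by the lowest percentile of each gene, at 94.7, 90.2, 83.2 and 92.2 of replicates 1 to 4. Next came *Cd80*, a co-stimulatory ligand of T cells that shares its peak with *Adprh*, at 99.8, 99.8, 72.9 and 99.7. *Gli2*, a transcription factor of Hedgehog signaling, lay at 93.2, 88.3, 71.1 and 85.1. The lowest of each run belonged to replicate 3, the library with the fewest peaks. *Prdm14*, a repressor that keeps naive pluripotent cells low in DNA methylation, lay at 87.3, 75.7, 46.3 and 65.3, and *Tfap2c*, an AP-2 factor of naive pluripotency, trophectoderm and germ cells, at 80.4, 76.2, 46.1 and 56.6. The others among the first 10 were *Gm21411*, *Ifitm3* (an interferon-induced membrane protein), *Trh* (the precursor of thyrotropin-releasing hormone), *H2-M5*, which shares its peak with *2410137M14Rik*, and *Tcea3*, with lowest percentiles from 43.9 to 61.2. *Nr5a2* and *Nr0b1*, nuclear receptor genes of the naive network, also belong to the 42. The median percentile of the 42 genes in their own libraries was 51.7, with 2 genes above 90. Without Oct4+ nEnd replicate 3 the count rose from 42 to 90 genes.

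Peaks present in all 3 DP nEnd libraries and in none of Oct4+ nEnd were found at 425 genes in 410 regions, 1.96% of all protein-coding genes. *Foxa2*, a pioneer factor of endoderm, lay at the percentiles 99.8, 99.8 and 99.8 of replicates 1 to 3, among the strongest peaks of each library. Genes of signals and receptors were among the first 10 when ranked in the same way: *Flt1*, a VEGF receptor, lay at 95.7, 97.0 and 94.5, and *Wnt11*, a WNT ligand, at 90.6, 91.9 and 90.7. *Hs3st1*, a sulfotransferase of heparan sulfate, lay at 96.8, 97.7 and 96.2. Also among the first 10 were *Arl6ip4*, which shares its peak with *Ogfod2*, *Adora1* (an adenosine receptor), *Snx33* (a sorting nexin) and *Gadd45g* (a stress-induced gene), with lowest percentiles from 86.8 to 93.6. Most of the 425 genes carried weaker peaks than these, with a median percentile of 26.2 and 8 genes above 90. Without Oct4+ nEnd replicate 1 the count rose from 425 to 757.

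The balance of both counts was different under other choices of peaks and libraries. With equal numbers of peaks, 282 genes (1.3%) were marked in Oct4+ nEnd alone and 445 (2.05%) in DP nEnd alone. Without Oct4+ nEnd replicates 3 and 4 the counts were 366 and 425. Of those 366 genes, 42 had a peak in both replicates 3 and 4, and 275 had one in neither. In these 2 libraries shallow coverage and absence of the mark cannot be told apart. The 3 Pdgfra+ nEnd libraries, sorted for PDGFRA without OCT4-mCherry and not used to choose these genes, were read at the same genes. Of the 42 genes of Oct4+ nEnd, 40 had a peak in 0 of 3 Pdgfra+ nEnd libraries and 2 in 1 of 3, where 2.02% of the 3903 genes marked in all Oct4+ nEnd libraries had none. Of the 425 genes of DP nEnd, 268 (63.1%) had a peak in all 3 Pdgfra+ nEnd libraries, beside 84.6% of the 8375 genes marked in all DP nEnd libraries, and 1 gene had none.

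The percentile was compared for the 9146 genes with a promoter peak in at least 3 of the 7 libraries. It was higher in Oct4+ nEnd at 260 genes (2.84%) and higher in DP nEnd at 951 (10.4%) by limma with an adjusted p under 0.05. Of these, 29 of the 260 had no peak in any DP nEnd library and 318 of the 951 none in any Oct4+ nEnd library, so that their test restates presence and absence. A further 24 and 515 had a peak in 1 or 2 libraries of the other population, where absent peaks count as 0 and the difference in rank cannot be separated from presence. The balance of the calls turned when absent peaks were left missing, with 209 genes higher in Oct4+ nEnd and 191 in DP nEnd, and when a peak was required in all 7 libraries, with 150 and 32. The median difference over all genes tested, Oct4+ nEnd minus DP nEnd, was −11.8 percentile points. With equal numbers of peaks 4812 genes could be tested, the median difference was −2.49, and 891 genes (18.5%) were higher in Oct4+ nEnd and 1236 (25.7%) in DP nEnd. Without Oct4+ nEnd replicates 3 and 4 the median was −0.449, and 1213 (13.4%) and 1459 (16.1%) of 9049 genes were called. Higher in Oct4+ nEnd were thus 21.5% of all calls with every peak, 41.9% with equal numbers and 45.4% without the 2 libraries. The genes themselves carried over from one setting to the next to a different degree. Of the 260 genes higher in Oct4+ nEnd, 236 (90.8%) were also called with equal numbers of peaks, and of the 951 higher in DP nEnd 322 (33.9%) were, 602 of the others being too weakly marked to be tested. The number of genes called in opposite directions was 0. The genes higher in Oct4+ nEnd mostly had a peak in all 7 libraries (207 of 260, 79.6%), while 77 of 951 (8.10%) higher in DP nEnd had one, beside 41.8% of all genes tested. The contrast was smaller without Oct4+ nEnd replicates 3 and 4, where 86.2% of the calls for Oct4+ nEnd and 71.6% of those for DP nEnd had a peak in all 5 libraries, beside 83.6% of all genes tested. The percentiles of the populations did not overlap at 478 genes (5.23%) in favor of Oct4+ nEnd and at 2695 (29.5%) in favor of DP nEnd, and with equal numbers of peaks at 998 (20.7%) and 1504 (31.3%). Single libraries moved the counts of 260 and 951. Without DP nEnd replicates 1, 2 or 3 the calls were 110, 115 and 110 for Oct4+ nEnd and 133, 129 and 243 for DP nEnd. Without Oct4+ nEnd replicate 1 DP nEnd had 1820, without replicate 3 Oct4+ nEnd had 432, and without replicate 4 the counts were 142 and 510.

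**Figure D2:**
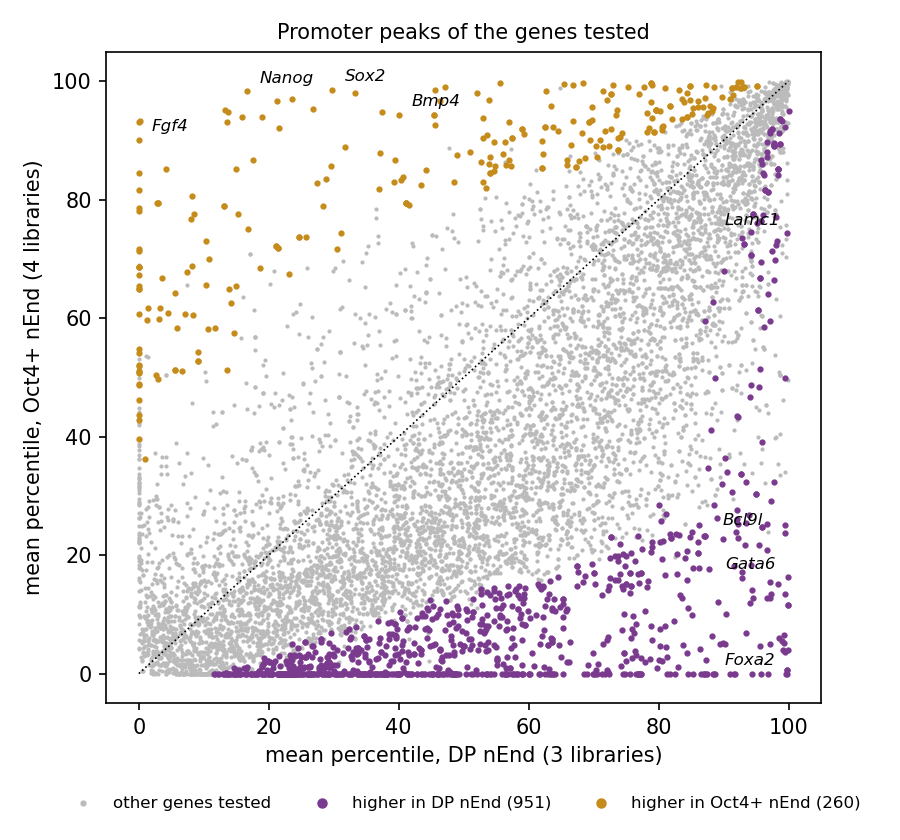
Mean percentile of the promoter peak in DP nEnd (x axis, 3 libraries) and Oct4+ nEnd (y axis, 4 libraries) for the genes tested, an absent peak counting as 0, with the dotted line at equality. The 260 genes called higher in Oct4+ nEnd include many that keep a peak in DP nEnd, and the 951 called higher in DP nEnd gather along the lower edge, where Oct4+ nEnd had no peak or a weak one in part of its libraries. Without Oct4+ nEnd replicates 3 and 4, 71.6% of the 1459 genes then called higher in DP nEnd had a peak in all 5 libraries.

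Genes of naive pluripotency and Epi had the higher percentile in Oct4+ nEnd. Of 21 listed genes tested, 14 were higher in Oct4+ nEnd and 0 in DP nEnd, beside 2.84% and 10.4% of all genes, with a median difference of 53.1 percentile points beside −11.8 over all genes tested. With equal numbers of peaks the counts were 14 and 1 of 20, beside 18.5% and 25.7% of all genes, and 10 of those 14 had no peak in any DP nEnd library among the 3477, so that their test restates presence. The genes called were not all the same. *Tfcp2l1* lost its call (limma, adjusted p = 0.063) and *Nr0b1* could not be tested, while *Klf5* and *Trim24* were gained. With all peaks, all but *Fgf4*, *Prdm14*, *Nr5a2* and *Nr0b1* of the 14 kept a peak in at least 1 DP nEnd library, at a lower rank. *Nanog* lay at the percentiles 99.3, 99.3, 97.6 and 96.8 in Oct4+ nEnd replicates 1 to 4 and 18.8, 19.6 and 11.5 in DP nEnd replicates 1 to 3, a difference of 81.6 ± 8.43 percentile points (SE, limma, adjusted p = 0.0013). *Sox2*, the partner of OCT4, lay at 98.5, 98.7, 98.4 and 98.5 in Oct4+ nEnd replicates 1 to 4 and 21.2, 40.4 and 27.7 in DP nEnd replicates 1 to 3, a difference of 68.8 ± 7.4 percentile points (SE, limma, adjusted p = 0.0013). Neither gene overlapped between the populations. *Klf2*, a Krüppel-like factor of the naive state, lay at 95.7, 95.8, 92.8 and 94.7 in Oct4+ nEnd replicates 1 to 4 and 41.0, 40.8 and 30.4 in DP nEnd replicates 1 to 3, a difference of 57.3 ± 6.55 percentile points (SE, limma, adjusted p = 0.0013). *Esrrb*, an orphan nuclear receptor of the naive network, lay at 66.0, 63.3 and 37.4 in DP nEnd and ranked near the top of every Oct4+ nEnd library, a difference of 44.2 ± 6.65 percentile points (SE, limma, adjusted p = 0.0032). *Gdf3*, a TGF-β family ligand, differed by 81.1 ± 9.46 percentile points (SE, limma, adjusted p = 0.0013). *Zfp42* (REX1), a reporter gene of the naive state, and *Tdgf1*, the co-receptor of NODAL, lacked a peak in part of the DP nEnd libraries. *Zfp42* lay at 98.0, 97.9, 94.6 and 97.6 in Oct4+ nEnd replicates 1 to 4 and 36.6, 33.9 and no peak in DP nEnd replicates 1 to 3. *Tdgf1*, whose promoter window also holds the peak of *Lrrc2*, lay at 97.7, 89.4, 93.0 and 92.9 in Oct4+ nEnd replicates 1 to 4 and no peak, 0.441 and no peak in DP nEnd replicates 1 to 3, so that its call restates presence.

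Of the 21 genes, 7 did not pass the test. *Klf4* lay at 97.7, 97.9, 95.8 and 95.0 in Oct4+ nEnd replicates 1 to 4 and 99.4, 99.7 and 99.7 in DP nEnd replicates 1 to 3, with a difference of −3.02 ± 1.11 percentile points (SE, limma, adjusted p = 0.11) that turned significant with equal numbers of peaks, at −4.63 (adjusted p = 0.0059). Also with equal numbers, *Trim24*, a transcriptional cofactor, and *Klf5*, another Krüppel-like factor, passed the test toward Oct4+ nEnd, with differences of 34.6 and 10.4 (limma, adjusted p = 0.00064 and 0.0089), beside 10.6 and 2.93 with all peaks (limma, adjusted p = 0.11 and 0.27). For *Tbx3*, an Epi and PrE transcription factor, the difference was −1.23 ± 1.26 percentile points (SE, limma, adjusted p = 0.51). For *Sall4*, a zinc finger factor of both lineages, it was −0.659 ± 0.882 percentile points (SE, limma, adjusted p = 0.61). *Klf4*, *Tbx3* and *Sall4* lay at or above the 94.3 percentile in every library. Of the formative and primed Epi genes, 2 of 15 tested were higher in Oct4+ nEnd and 0 in DP nEnd, beside 2.84% and 10.4% of all genes, with a median difference of −0.304. Equal numbers of peaks gave 4 and 1 of 10, beside 18.5% and 25.7%, and the median turned to 8.36. One of the 2 was *Nodal*, the TGF-β ligand of Epi, at 98.9, 99.1, 95.7 and 98.0 in Oct4+ nEnd replicates 1 to 4 and 30.4, 37.9 and 31.6 in DP nEnd replicates 1 to 3, a difference of 64.6 ± 6.33 percentile points (SE, limma, adjusted p = 0.0013). *Dnmt3b*, a de novo DNA methyltransferase of the list, differed by −10.1 ± 14.2 percentile points (SE, limma, adjusted p = 0.63).

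**Figure D3:**
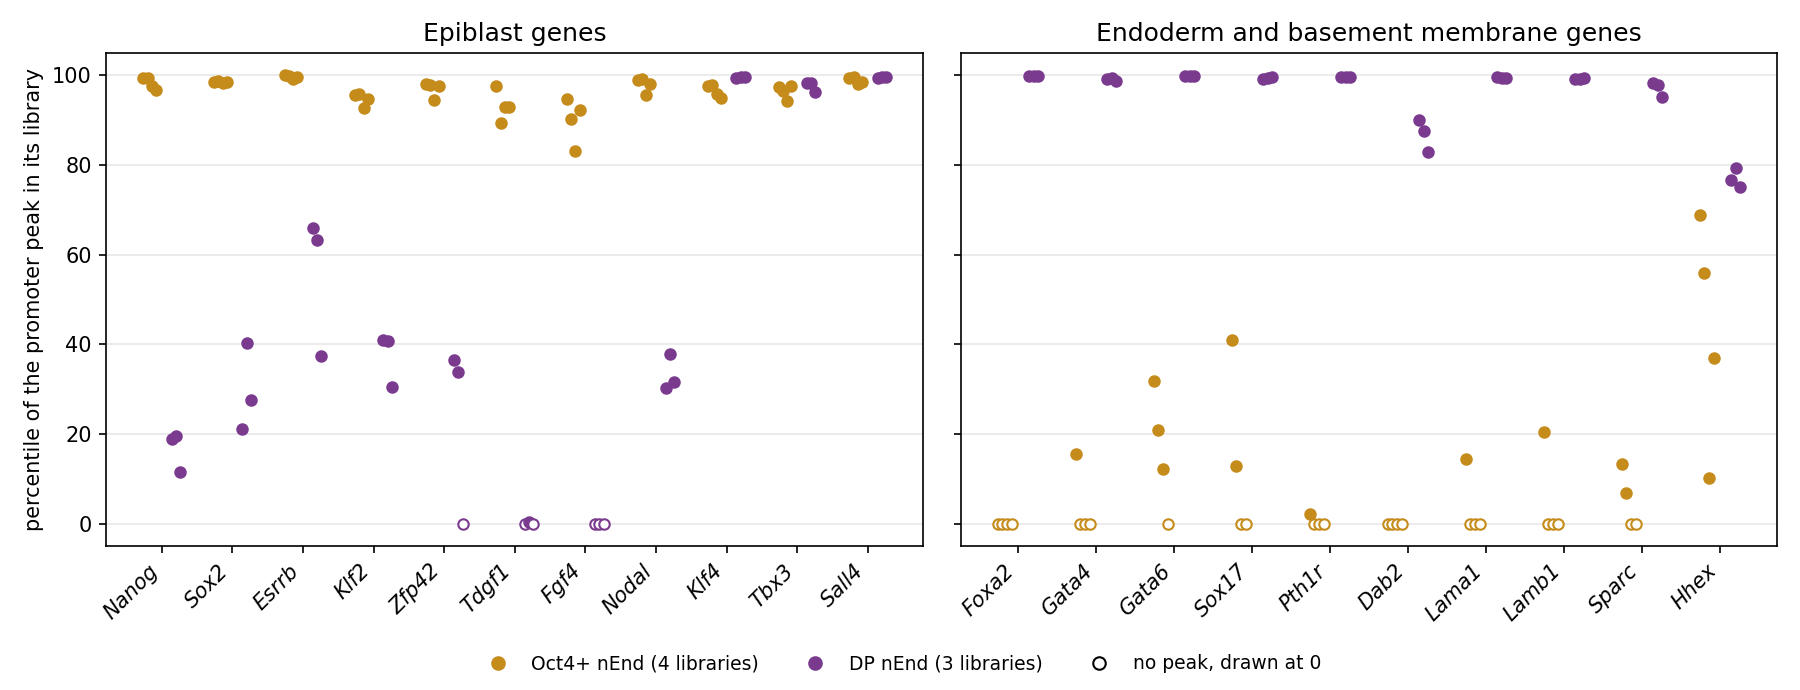
Percentile of the best promoter peak in each library for 11 Epi genes (left) and 10 endoderm and basement membrane genes (right), with 4 points for Oct4+ nEnd and 3 for DP nEnd per gene and open points at 0 where the library had no peak. *Nanog*, *Sox2* and *Nodal* keep a low-ranked peak in all 3 DP nEnd libraries, while *Foxa2* and *Dab2* have none in the 4 Oct4+ nEnd libraries.

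Regulators of PrE had the opposite pattern. Of 18 tested, 13 were higher in DP nEnd and 0 in Oct4+ nEnd, beside 10.4% and 2.84% of all genes, with a median difference of −70.8 percentile points. The count was 13 of 14 with equal numbers of peaks, beside 25.7%. Of the 13, 6 had no peak in any Oct4+ nEnd library and were tested through DP nEnd alone, as were 10 of the 13 with equal numbers. The genes called were not all the same. With equal numbers *Cited1* lost its call (limma, adjusted p = 0.072) and another gene could not be tested, while *Hhex* and *Cited2* were gained. Traces of the mark at the core PrE factors were seen in some Oct4+ nEnd libraries. *Gata6*, which starts the PrE program, lay at 31.9, 21.02, 12.3 and no peak in Oct4+ nEnd replicates 1 to 4 and 99.9, 99.9 and 99.9 in DP nEnd replicates 1 to 3, a difference of −83.6 ± 11.99 percentile points (SE, limma, adjusted p = 0.0026). *Gata4* lay at 99.3, 99.4 and 98.7 in DP nEnd and was found in Oct4+ nEnd replicate 1 alone, at 15.6. *Sox17*, an endoderm SOX factor, lay at 41.0, 13.0, no peak and no peak in Oct4+ nEnd replicates 1 to 4 and 99.2, 99.5 and 99.6 in DP nEnd replicates 1 to 3. The Oct4+ nEnd peaks at these 3 genes belonged to replicates 1 to 3, and replicate 4 had none. *Pth1r*, the receptor of parathyroid hormone-related protein in parietal endoderm, lay at 99.7, 99.7 and 99.7 in DP nEnd and at 2.27 in Oct4+ nEnd replicate 1 alone. Its peaks can also cover the promoter of *Myl3*. *Dab2*, an endocytic adaptor of PrE, and *Sox7* had no peak in Oct4+ nEnd and lay at 90.1, 87.7 and 83.0 and at 70.5, 70.7 and 69.1 in DP nEnd. The peak at *Hhex*, a homeobox gene of early PrE, was present in all 7 libraries. It lay at 68.8, 55.9, 10.3 and 37.0 in Oct4+ nEnd replicates 1 to 4 and 76.7, 79.4 and 75.1 in DP nEnd replicates 1 to 3, a difference of −34.1 ± 14.95 percentile points (SE, limma, adjusted p = 0.16), which passed the test with equal numbers of peaks (difference −36.4, adjusted p = 0.00098).

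Most tested genes of the basement membrane and of secretion in extra-embryonic endoderm differed in the same direction as the regulators. Of the 30 genes listed, 10 had no peak in the 7 libraries, among them the secretory genes *Ttr*, *Afp*, *Apoa1*, *Rbp4*, *Cer1* and *Spink1*. Of 19 tested, 15 were higher in DP nEnd and 1 in Oct4+ nEnd, beside 10.4% and 2.84% of all genes, with a median difference of −73.5 percentile points. The counts were 12 and 2 of 17 with equal numbers of peaks, beside 25.7% and 18.5%. Of the 15, 3 had no peak in any Oct4+ nEnd library, and of the 12 with equal numbers 10 had none. *Lama1* and *Lamb1*, chains of the laminin that lines the endoderm, lay at or above the 99.2 percentile in DP nEnd and had a peak in Oct4+ nEnd replicate 1 alone, at 14.5 and 20.5. *Col4a1* and *Col4a2*, the type IV collagen genes that share a promoter peak, were found in Oct4+ nEnd replicates 1 and 2 alone, at 32.8 and 13.8. *Sparc*, a matrix protein of parietal endoderm, lay at 13.4, 6.88, no peak and no peak in Oct4+ nEnd replicates 1 to 4 and 98.2, 97.8 and 95.3 in DP nEnd replicates 1 to 3. *Serpinh1*, the collagen chaperone, and the collagen-modifying enzymes *P4ha1* and *Plod2*, each with a peak in 2 of 4 Oct4+ nEnd libraries, were higher in DP nEnd, with differences from −93.5 to −75.3, and *P4ha2*, another such enzyme, was marked in DP nEnd alone. The 1 gene called for Oct4+ nEnd with all peaks was *Lama5*, of the laminin α5 chain. It lay at 98.0, 97.3, 90.05 and 96.9 in Oct4+ nEnd replicates 1 to 4 and 85.1, 85.4 and 87.7 in DP nEnd replicates 1 to 3, a difference of 9.51 ± 2.29 percentile points (SE, limma, adjusted p = 0.028). *Nid2* was called for Oct4+ nEnd with equal numbers of peaks, at 47.2 (limma, adjusted p = 0.0026), beside 12.5 with all peaks (limma, adjusted p = 0.29). *Apoe*, whose peaks can also cover the promoter of *Apoc1*, differed by 30.6 ± 15.3 percentile points (SE, limma, adjusted p = 0.21).

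**Figure D4:**
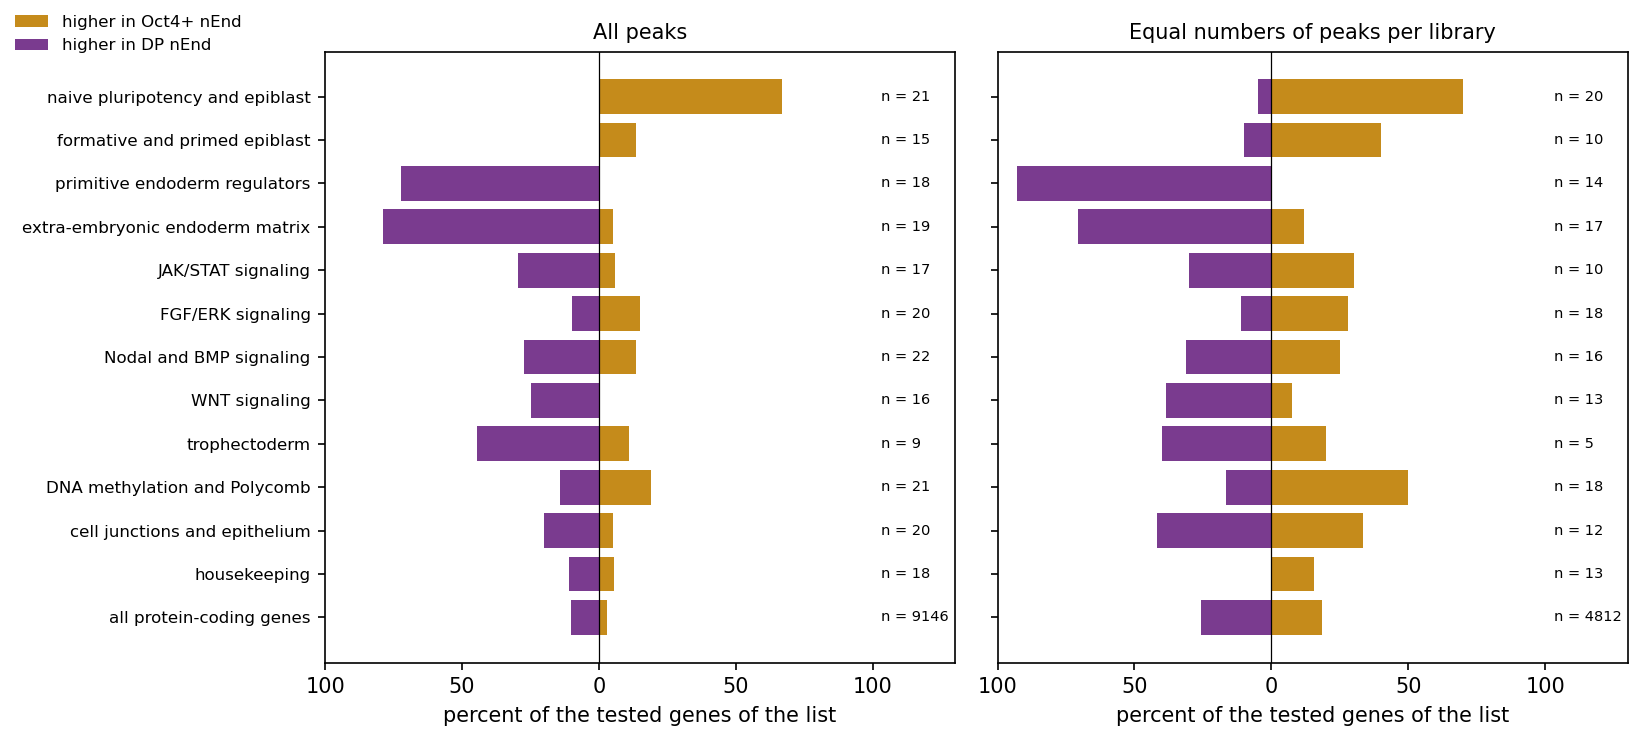
Percent of the tested genes of each list called higher in Oct4+ nEnd (right of 0) or in DP nEnd (left of 0) by limma, with all peaks and with equal numbers of peaks; n is the number of genes tested. The Epi list lies to the right (14 of 21 and 14 of 20) and both endoderm lists to the left, calls at genes without a peak in the other population included, beside 2.84% and 10.4% over all genes with all peaks.

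Signaling genes are given by pathway, each count beside the 2.84% (Oct4+ nEnd) and 10.4% (DP nEnd) called over all genes and each median beside −11.8. In the FGF/ERK list, 3 of 20 genes were higher in Oct4+ nEnd and 2 in DP nEnd, the latter near the share over all genes, with a median difference of −3.67. The counts with equal numbers were 5 and 2 of 18, beside 18.5% and 25.7% of all genes, 3 and 1 of them without a peak in the other population, and the median turned to 7.62. The 3 were the ligand *Fgf4* and the ERK feedback genes *Dusp6*, a phosphatase, and *Spry4*. *Spry4* lay at 98.4, 98.2, 84.4 and 96.4 in Oct4+ nEnd replicates 1 to 4 and 72.3, 72.2 and 75.9 in DP nEnd replicates 1 to 3, a difference of 20.9 ± 3.89 percentile points (SE, limma, adjusted p = 0.0085). *Dusp6* lay at 98.4, 98.5, 94.9 and 96.9 in Oct4+ nEnd replicates 1 to 4 and 91.5, 86.5 and 83.3 in DP nEnd replicates 1 to 3, a difference of 10.04 ± 2.16 percentile points (SE, limma, adjusted p = 0.017). Another ligand and a receptor were marked in DP nEnd alone: *Fgf10* at 77.3, 82.7 and 69.5 and *Fgfr3* at 38.5, 42.6 and 24.2. The receptor *Fgfr2*, through which PrE reads FGF4, differed by −0.378 ± 1.45 percentile points (SE, limma, adjusted p = 0.87), and its peaks can also cover a promoter of *Ctbp2*.

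In the Nodal and BMP list, 3 of 22 genes were higher in Oct4+ nEnd and 6 in DP nEnd, with a median difference of −16.1 (2.84%, 10.4% and −11.8 over all genes). Equal numbers of peaks gave 4 and 5 of 16, beside 18.5% and 25.7%, 3 and 4 of them without a peak in the other population, and the median was −2.07 beside −2.49. The BMP ligands *Bmp4* and *Bmp2* were strongest in different populations. *Bmp4* lay at 97.1, 97.4, 89.5 and 93.3 in Oct4+ nEnd replicates 1 to 4 and 43.1, 45.4 and 31.5 in DP nEnd replicates 1 to 3, a difference of 54.3 ± 6.69 percentile points (SE, limma, adjusted p = 0.0014). *Bmp2* lay at 87.0, 89.3 and 85.5 in DP nEnd and had no peak in Oct4+ nEnd. The ID genes, which are direct targets of BMP signaling, were marked in all 3 DP nEnd libraries and in Oct4+ nEnd replicates 1 and 2 at most. *Id1* lay at 60.6, 59.3 and 57.2 in DP nEnd and at 23.3 and 10.2 in Oct4+ nEnd replicates 1 and 2. *Id3* lay at 64.1, 74.1 and 56.3 in DP nEnd and at 26.8 and 18.3 in Oct4+ nEnd replicates 1 and 2. *Id2* lay at 42.6, 42.6 and 29.4 in DP nEnd and had no peak in Oct4+ nEnd. Replicates 3 and 4, which lack all 3 genes, are the libraries with the fewest peaks. *Nodal* and *Tdgf1*, the ligand and its co-receptor, were the other 2 genes higher in Oct4+ nEnd.

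The JAK/STAT pathway carries the LIF signal in this culture. Of 17 genes tested, 1 was higher in Oct4+ nEnd and 5 in DP nEnd, beside 2.84% and 10.4% of all genes, with a median difference of −16.6 beside −11.8. With equal numbers of peaks 3 and 3 of 10 were called, beside 18.5% and 25.7% of all genes, so that the DP nEnd count was near the share over all genes, and the median was 0.76. Of the 3 then called for DP nEnd, 2 had no peak in any Oct4+ nEnd library. *Jak2*, a cytoplasmic tyrosine kinase bound to cytokine receptors, lay at 29.2, 23.9, no peak and no peak in Oct4+ nEnd replicates 1 to 4 and 77.1, 74.1 and 62.8 in DP nEnd replicates 1 to 3. The feedback inhibitors differed among themselves. *Socs3* lay at 81.9, 79.7, 82.6 and 82.5 in Oct4+ nEnd replicates 1 to 4 and 95.0, 96.8 and 97.3 in DP nEnd replicates 1 to 3, a difference of −14.7 ± 2.1 percentile points (SE, limma, adjusted p = 0.0025), and *Socs2* at 93.8, 95.8, 81.0 and 90.9 in Oct4+ nEnd replicates 1 to 4 and 75.2, 71.9 and 74.1 in DP nEnd replicates 1 to 3, a difference of 16.6 ± 4.09 percentile points (SE, limma, adjusted p = 0.03). *Socs1* and *Stat5b*, also with a peak in 2 of 4 Oct4+ nEnd libraries, were higher in DP nEnd too. For *Stat3*, the transducer of LIF, the difference was −22.0 ± 14.4 percentile points (SE, limma, adjusted p = 0.31), and for its receptor gene *Lifr* it was −13.1 ± 11.5 percentile points (SE, limma, adjusted p = 0.44). In the WNT list, 0 of 16 were higher in Oct4+ nEnd and 4 in DP nEnd (2.84% and 10.4% over all genes), with a median difference of −21.7. Equal numbers of peaks gave 1 and 5 of 13, beside 18.5% and 25.7%, 2 of the 5 without a peak in Oct4+ nEnd, and the median was −6.61. Of the 4 with all peaks, *Wnt11*, the receptor gene *Fzd2* and the inhibitor gene *Dkk1* had no peak in any Oct4+ nEnd library and were tested through DP nEnd alone, and the fourth was the receptor gene *Fzd4*. *Axin2*, the usual readout of β-catenin, differed by −6.83 ± 6.08 percentile points (SE, limma, adjusted p = 0.45).

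Among genes of DNA methylation and Polycomb, 4 of 21 were higher in Oct4+ nEnd and 3 in DP nEnd, beside 2.84% and 10.4% of all genes. The median difference was −5.26 beside −11.8. With equal numbers of peaks 9 and 3 of 18 were called, beside 18.5% and 25.7%, and the median turned to 12.8 beside −2.49. The DP nEnd counts were thus near the share over all genes or below it. The TET genes, whose enzymes oxidize methylated cytosine, differed in direction. *Tet1* lay at 99.9, 99.9, 99.7 and 99.9 in Oct4+ nEnd replicates 1 to 4 and 92.5, 94.2 and 90.2 in DP nEnd replicates 1 to 3, a difference of 7.56 ± 1.25 percentile points (SE, limma, adjusted p = 0.0048). *Tet2* differed by 28.4 ± 7.72 percentile points (SE, limma, adjusted p = 0.044). *Tet3* lay at 58.9, 59.9, 25.9 and 29.6 in Oct4+ nEnd replicates 1 to 4 and 91.9, 92.4 and 92.0 in DP nEnd replicates 1 to 3, a difference of −48.6 ± 11.4 percentile points (SE, limma, adjusted p = 0.025). The Polycomb partners were divided as well. *Mtf2*, a subunit of PRC2, lay at 97.8, 86.9, 84.0 and 87.1 in Oct4+ nEnd replicates 1 to 4 and 29.8, 44.6 and 20.9 in DP nEnd replicates 1 to 3, a difference of 57.2 ± 9.45 percentile points (SE, limma, adjusted p = 0.0049). *Cbx7*, the chromobox subunit of PRC1 in pluripotent cells, differed by 33.1 ± 7.46 percentile points (SE, limma, adjusted p = 0.021). *Epop*, also of PRC2, lay at 84.7, 87.6, 75.9 and 88.1 in Oct4+ nEnd replicates 1 to 4 and 95.0, 96.2 and 97.7 in DP nEnd replicates 1 to 3, a difference of −12.2 ± 3.13 percentile points (SE, limma, adjusted p = 0.035). *Ezh1* was marked in DP nEnd alone, at 14.1, 20.8 and 9.83.

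Markers of other cells that the sort could hold were read in the same way. Of 15 fibroblast genes, 14 had no peak in the 7 libraries, and *Twist1* had weak peaks, none of which ranked high. Of 16 mesoderm genes 12 had no peak, and the 2 tested, *Msx2* and *Snai1*, were called for DP nEnd (10.4% over all genes). *Msx2* had no peak in Oct4+ nEnd and *Snai1* a peak in replicate 1 alone, so that the call at *Msx2* restates presence. Of the trophectoderm genes, 6 of 18 had no peak, 1 of 9 tested was called for Oct4+ nEnd (*Tfap2c*) and 4 for DP nEnd, beside 2.84% and 10.4% of all genes: the keratin genes *Krt8* and *Krt18*, *Gata3* and *Id2*. All 5 had no peak in the other population, so these calls restate presence. *Krt8* lay at 74.9, 72.1 and 70.2 in DP nEnd and *Krt18* at 39.4, 38.5 and 22.9, both without a peak in Oct4+ nEnd. These keratins are also made by extra-embryonic endoderm. In the list of cell junctions and epithelium 1 of 20 was higher in Oct4+ nEnd and 4 in DP nEnd, 2 of them without a peak in Oct4+ nEnd, beside 2.84% and 10.4% of all genes. The median was −15.5 beside −11.8, and *Cdh1*, the gene of E-cadherin, differed by 5.09 ± 8.97 percentile points (SE, limma, adjusted p = 0.71). Equal numbers of peaks gave 4 and 5 of 12, beside 18.5% and 25.7%, 2 and 3 of them without a peak in the other population. The median was then −3.92 beside −2.49. Of 18 housekeeping genes tested, 1 was higher in Oct4+ nEnd and 2, both without a peak in Oct4+ nEnd, in DP nEnd, which is near the 2.84% and 10.4% over all genes. The median was −4.96, and *Gapdh* lay at 99.8, 99.9, 99.7 and 99.7 in Oct4+ nEnd replicates 1 to 4 and 99.7, 99.9 and 99.9 in DP nEnd replicates 1 to 3. With equal numbers of peaks the housekeeping counts were 2 and 0 of 13, beside 18.5% and 25.7%, and the median turned to 8.28.

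Genes marked in all 7 libraries show differences in rank that do not rest on absent peaks. The 10 with the largest difference in favor of Oct4+ nEnd were *Cldn4*, *Nanog*, *Vegfc*, *Gdf3*, *Notum*, *Lemd1*, *Jam2*, *Igfbp2*, *Bcat1* and *Inhbb*, with differences from 70.2 to 81.9. *Cldn4*, a tight junction gene whose window also holds the peak of *Mettl27*, lay at 97.3, 97.1, 90.6 and 95.8 in Oct4+ nEnd replicates 1 to 4 and 5.09, 15.4 and 19.4 in DP nEnd replicates 1 to 3, a difference of 81.9 ± 9.6 percentile points (SE, limma, adjusted p = 0.0013). *Vegfc*, a ligand of VEGF receptors, lay at 88.5, 90.5, 76.2 and 85.7 in Oct4+ nEnd replicates 1 to 4 and 1.5, 9.61 and 1.32 in DP nEnd replicates 1 to 3, a difference of 81.1 ± 10.9 percentile points (SE, limma, adjusted p = 0.0019). *Notum*, a secreted enzyme that inactivates WNT ligands, lay at 93.9, 95.7, 91.3 and 95.3 in Oct4+ nEnd replicates 1 to 4 and 8.67, 23.2 and 15.6 in DP nEnd replicates 1 to 3. *Igfbp2* binds insulin-like growth factors and *Inhbb* encodes an activin subunit. *Lemd1* shares its peak with *AC124108.1*. In each of the 10, the lowest Oct4+ nEnd library lay above the highest DP nEnd library.

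The 10 in favor of DP nEnd were *Bcl9l*, *2210011C24Rik*, *Kdelr3*, *Esyt1*, *Bahd1*, *L3mbtl3*, *Rab11fip5*, *Hspg2*, *Tet3* and *Arhgef17*, with differences from −75.6 to −47.4. *Bcl9l*, a co-activator of β-catenin, lay at 31.7, 33.1, 8.46 and 21.8 in Oct4+ nEnd replicates 1 to 4 and 99.5, 99.3 and 99.4 in DP nEnd replicates 1 to 3, a difference of −75.6 ± 11.1 percentile points (SE, limma, adjusted p = 0.0029). *Kdelr3*, a receptor that returns proteins to the endoplasmic reticulum, lay at 47.3, 30.9, 7.03 and 7.28 in Oct4+ nEnd replicates 1 to 4 and 84.7, 83.1 and 86.5 in DP nEnd replicates 1 to 3, a difference of −61.7 ± 13.7 percentile points (SE, limma, adjusted p = 0.019). *Hspg2* encodes perlecan, the heparan sulfate proteoglycan of basement membranes. It lay at 64.3, 58.5, 25.8 and 24.9 in Oct4+ nEnd replicates 1 to 4 and 94.6, 91.6 and 90.5 in DP nEnd replicates 1 to 3, a difference of −48.9 ± 12.3 percentile points (SE, limma, adjusted p = 0.033). In 9 of the 10 genes, all but *2210011C24Rik*, replicates 3 and 4 of Oct4+ nEnd, the libraries with the fewest peaks, lay below replicates 1 and 2. All 10 genes passed the test without replicates 3 and 4, with differences from −67.1 to −25.8 (limma, adjusted p from 0.00026 to 0.0044).

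The width of the best promoter peak was compared for the 3821 genes marked in all 7 libraries. By limma 2 genes (0.0523%) had wider peaks in DP nEnd and 0 (0%) in Oct4+ nEnd, with 1 left for DP nEnd when any one of 6 libraries was left out, and 406 had an unadjusted p under 0.05, 360 of them wider in DP nEnd. The median difference was −0.15 on the log2 scale. The 2 genes were *Bcl9l* (ENSMUSG00000063382.6, chromosome 9, 44482825 to 44511896, plus strand) and *Lamc1* (ENSMUSG00000026478.14, chromosome 1, 153218922 to 153332786, minus strand), the gene of the laminin γ1 chain that joins the products of *Lama1* and *Lamb1*. The peak at *Bcl9l* measured 2159, 2782, 2869 and 2853 bp in Oct4+ nEnd replicates 1 to 4 and 10906, 11356 and 12317 bp in DP nEnd replicates 1 to 3, a difference of −2.12 ± 0.19 on the log2 scale (SE, limma, adjusted p = 0.001). At *Lamc1* it measured 5000, 4185, 3431 and 5076 bp in Oct4+ nEnd replicates 1 to 4 and 19911, 19845 and 11416 bp in DP nEnd replicates 1 to 3, a difference of −1.92 ± 0.27 on the log2 scale (SE, limma, adjusted p = 0.037). At both genes the narrowest DP nEnd peak was wider than the widest peak of Oct4+ nEnd. *Lamc1* was also higher in rank in DP nEnd, with a difference of −25.5 ± 6.38 percentile points (SE, limma, adjusted p = 0.032). Widths are also given for 4 genes of higher rank in Oct4+ nEnd, none of which passed the test. At *Esrrb* the peak measured 44034, 27241, 14176 and 27354 bp in Oct4+ nEnd replicates 1 to 4 and 18505, 15022 and 9070 bp in DP nEnd replicates 1 to 3, a difference of 0.94 ± 0.40 on the log2 scale (SE, limma, adjusted p = 0.45). At *Nanog* it measured 15214, 13584, 5891 and 7916 bp in Oct4+ nEnd replicates 1 to 4 and 7905, 6452 and 5432 bp in DP nEnd replicates 1 to 3, a difference of 0.60 ± 0.34 on the log2 scale (SE, limma, adjusted p = 0.57), with overlap between the populations. At *Sox2* the difference was 0.92 ± 0.31 on the log2 scale (SE, limma, adjusted p = 0.42) and at *Tet1* 1.04 ± 0.43 on the log2 scale (SE, limma, adjusted p = 0.45). Ranks by total signal thus differed at genes whose width did not pass the test. Total signal is added up along the peak, so rank and width are not independent and were not separated here.

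**Figure D5:**
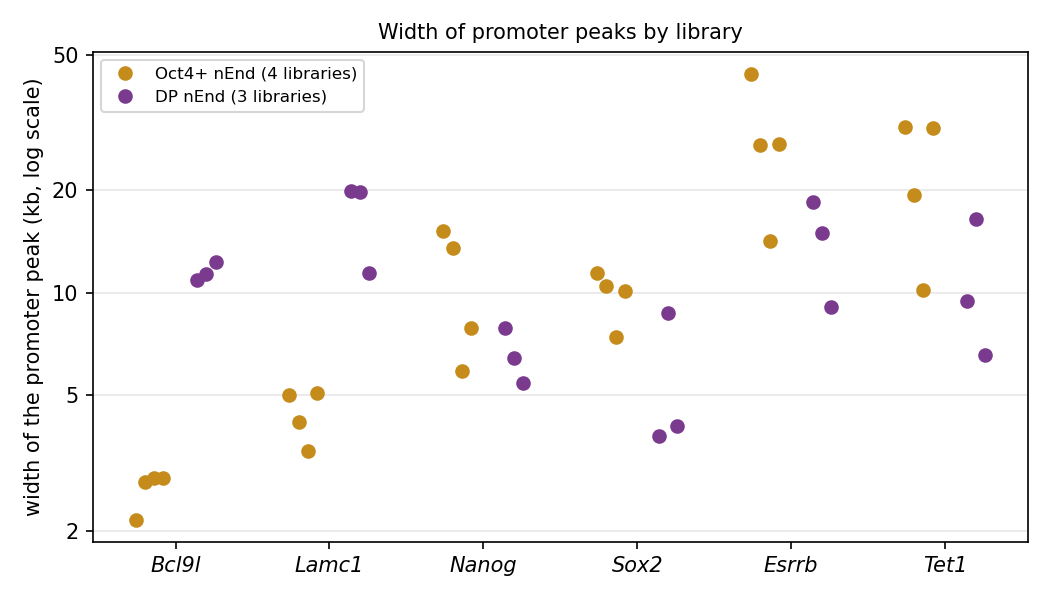
Width in kb (log axis) of the best promoter peak of 6 genes in each library of Oct4+ nEnd (4 points) and DP nEnd (3 points). At *Bcl9l* and *Lamc1* the DP nEnd peaks are all wider than the Oct4+ nEnd peaks, and at *Nanog*, *Sox2*, *Esrrb* and *Tet1* the populations overlap.

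Promoter sequence played no part in the choice of genes and was described for the same sets. CpG dinucleotides were counted from 250 bases upstream to 49 downstream of each TSS and averaged per gene. The median was 20.7 CpG over the 9146 genes tested and 4.5 over the 11192 genes without a peak. The 42 genes marked in Oct4+ nEnd alone had a median of 9 CpG, with an observed over expected ratio of 0.384 against 0.732 over the genes tested. The 425 genes marked in DP nEnd alone had a median of 17 and a ratio of 0.635. The 260 and 951 genes called by percentile were close to each other, at 19 and 19.5. The shortened octamer ATGCAAA was searched for on either strand in any of these windows of a gene. It was found at 10.8% of the 260 genes higher in Oct4+ nEnd, at 7.05% of the 951 higher in DP nEnd and at 6.82% of the genes tested. The GATA motif AGATAA was found at 16.2%, 14.5% and 14%. At the 42 genes marked in Oct4+ nEnd alone the shares were 7.14% for ATGCAAA and 11.9% for AGATAA. At the 425 genes marked in DP nEnd alone they were 6.12% and 14.6%. A gene with more TSS had more windows in which to match. These shares are descriptions of the sequence and were not tested.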

How the data were processed

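H3K4me3 CUT&Tag reads were aligned to mm10 (GRCm38) by the authors with Bowtie2, and SAMtools 1.12, bedtools 2.26.0 and bcl2fastq 2.19.1 are named in the submitters' processing notes. Peaks were called per library against IgG with SEACR in stringent mode, and the deposited lists give each peak's total signal and highest coverage, which were not scaled between libraries. Here Python 3.11.15, numpy 2.4.6 and pandas 2.3.3 assigned peaks to promoters, and limma 3.58.1 in R 4.3.3 (moderated test with trend, Benjamini-Hochberg over all genes tested) compared percentiles of genes with a peak in at least 3 of 7 libraries and log2 widths of genes with a peak in all 7. Library values were compared by exact permutation over 35 splits. Genes were named from the lists and as the 10 per direction with the highest lowest percentile (peaks in one population alone), the 10 with the largest called difference among genes marked in all 7, and all width calls. The members and lists were chosen with earlier results of these data known. Pooled consensus lists were not used. Some genes that these rules select are not reported here. The fits were run on simulated data with 200 changed genes. Those values were drawn from a normal distribution around each gene's mean and held no absent peaks. The run therefore does not test calls that rest on absent peaks.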

Additional observations from a re-analysis of the deposited data

Results flagged for a closer look

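Among 110 values examined over the 4 Oct4+ nEnd libraries, 22 had 1 library far from the other 3 by Dixon's 95% criterion, which divides the gap to the nearest library by the range. Chance sets apart about 1 in 20 such groups, and genes measured in the same libraries are not independent. In one kind, Oct4+ nEnd replicate 3, the library with the fewest peaks, lay below the others. Its percentile was 72.9 at *Cd80*, 48.6 at *Trh*, 13.7 at *Nr5a2*, 94.6 at *Zfp42*, 90.05 at *Lama5*, 84.4 at *Spry4*, 94.6 at *Fgfr2*, 61.95 at *Axin2*, 99.7 at *Tet1*, 70.03 at *Cbx7*, 52.4 at *Cdh1*, 88.3 at *Lemd1* and 86.2 at *Jam2*. In the other kind, Oct4+ nEnd replicate 1 lay above the others, which had no peak or a weaker one. At 6 of these genes the other 3 libraries had no peak and count as 0, so the criterion is met by construction, which leaves 16 of 104 values. The 104 still include genes without a peak in any Oct4+ nEnd library, which could not be set apart. The counts therefore cannot be set against chance. The percentile of replicate 1 was 15.7 at *Pdgfra*, 15.6 at *Gata4*, 2.27 at *Pth1r*, 14.5 at *Lama1*, 20.5 at *Lamb1*, 20.4 at *Serpinh1*, 8.6 at *Plod2*, 2.21 at *Snai1* and 27.9 at *2210011C24Rik*. The part that the length of the peak lists plays in these values was not tested.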

How the results depend on the processing

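Of 156 comparisons of a summary value with an alternative, 110 met the rule for their kind. For a count the rule was to stay within 1.5 times, so that a count could not be called reversed. For the 3 library measures, of which 0 reversed, it was only to keep the sign and the side of the threshold. With a library left out the exact permutation p cannot go under 0.05, so this side was then fixed. The difference in genes marked per library (−2228) met the rule and still shrank to −230.1 with equal numbers of peaks and −85.8 without Oct4+ nEnd replicates 3 and 4. Promoters widened to 2500 bp in both directions kept all 11. Of 93 named genes called by percentile, 53 were called under every setting that tested them. The count of genes marked in Oct4+ nEnd alone (42) was 282 with equal numbers of peaks, 366 without Oct4+ nEnd replicates 3 and 4 and 72 over all annotated genes. Leaving out 1 library gave 42 to 90, and 425 to 757 for DP nEnd alone (425). Higher percentiles in Oct4+ nEnd (260) numbered 891 with equal numbers, 1213 without replicates 3 and 4, 117 when ranked by highest signal, 209 with absent peaks missing, 150 with a peak required in 7 libraries and 502 with both this and equal numbers. Higher percentiles in DP nEnd (951) numbered 1459 without replicates 3 and 4, 608 by highest signal, 191 with absent peaks missing, 32 with peaks in 7 libraries and 490 with both, so that with absent peaks missing and with peaks in 7 libraries more genes were called for Oct4+ nEnd than for DP nEnd, as was so for 502 against 490. Leaving out 1 library gave 110 to 432 and 129 to 1820. Wider peaks in Oct4+ nEnd (0) numbered 2 without replicates 3 and 4, 3 with the TSS of all transcripts and 1 by percentile of width. Wider peaks in DP nEnd (2) numbered 0 when 50% of the window had to be covered, 1 with equal numbers, 5 without replicates 3 and 4, 4 with all transcripts, 1 by percentile of width and 0 by that with equal numbers, and 1 to 3 without 1 library. Percentiles that did not overlap (478 and 2695) numbered 998 and 1504 with equal numbers, 2449 for Oct4+ nEnd without replicates 3 and 4, 929 with absent peaks missing, and 484 to 961 for Oct4+ nEnd without 1 library. The causes were not tested. The alternatives with all transcripts and with peaks in 7 libraries plus equal numbers were chosen after seeing the data. Same-numbered libraries deviated with correlations of 0.0765, −0.000185 and 0.112, so the numbers are not shown to pair the samples. With the replicate block 325 and 976 percentiles and 0 and 1 widths were called. Total reads are unknown, so a missing peak in a library of low coverage cannot be told apart from a missing mark.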
